A study of Mus musculus with 8 samples.

Results

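PB3-VIN-R, a mouse breast cancer line made resistant to vinorelbine, was compared with PB3-Parental, the untreated line it came from, for chromatin openness over the autosomes. The comparison holds 4 of the 8 libraries of the study, 2 per line. It covers 56072 autosomal regions of the 57417 consensus regions of the count table, of which 56070 were deep enough to test. Each region inside or within 50 kb of a protein-coding gene was also added to that gene, which gave 14454 autosomal gene loci with a test, of 14936 loci in all. The assay, ATAC-seq, uses a transposase that inserts into DNA where nucleosomes and other proteins leave it free, so the fragments counted over a region follow how open that region is.

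All libraries come from PB3 cells, labelled Er-/Pr-/Her2- (without the oestrogen, progesterone and Her2 receptors). PB3-VIN-R was selected in vinorelbine at 300 nM, 500 nM and 800 nM. PB3-PAC-R was selected in paclitaxel and PB3-ERI-R in eribulin at the same concentrations, and both serve here only as a frame of reference. PB3-Parental had no drug. The protocol speaks of resistant clones and does not say how many clones make up a line. Nothing in the labels says that the 2 replicates of a line were grown apart. A p-value here therefore covers the spread between libraries only, and that spread may be technical. In such bulk libraries a change in the share of cells with a site open and a change in openness within each cell cannot be told apart.

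Vinorelbine is a vinca alkaloid that binds tubulin and blocks the growth of microtubules, so that dividing cells stall in mitosis. Resistance to vinca alkaloids is classically tied to the efflux pump P-glycoprotein, encoded in mice by Abcb1a and Abcb1b, and to changes in tubulin isotypes and microtubule-associated proteins. Open chromatin marks promoters and distal elements such as enhancers, and a change at either is often, but not always, accompanied by a change in the gene's transcription. No RNA level was measured in these files.

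The PB3-VIN-R libraries held 24052237 and 23206697 counts and the PB3-Parental libraries 15644934 and 14173295, so the resistant line was sequenced more deeply. At a floor of 3 counts a library could show 0.114 and 0.125 CPM (counts relative to scaled library size) in PB3-VIN-R, and 0.181 and 0.2 CPM in PB3-Parental. The log2 CPM of a library of one line correlated with that of a library of the other at r = 0.949 to 0.981 over the regions, while the replicates of a line correlated at 0.978 in PB3-VIN-R and 0.97 in PB3-Parental. These are correlations across regions, which are not independent.

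Few regions were called different between the lines, and those called differed by a large factor. Of the 56070 regions tested, 361 (0.644%) differed at an adjusted p under 0.05 in edgeR's quasi-likelihood test with Benjamini-Hochberg adjustment, and 5460 (9.74%) had an unadjusted p under 0.05. PB3-VIN-R was more open at 198 of them (0.353%) and less open at 163 (0.291%). Of the 361, 356 differed by a log2 fold change of 1 or more in size and 122 by 2 or more. With 2 libraries per line and a median SE of 0.25, a region with a small change could hardly be called. The large factor among the calls therefore follows in part from the threshold. The median log2 fold change, PB3-VIN-R over PB3-Parental, was 1.95 at the regions that gained openness and -1.60 at those that lost it, against -0.01 over all regions (interquartile range -0.20 to 0.14). The gained regions had a median of 7.83 CPM in PB3-VIN-R and 1.91 CPM in PB3-Parental. The lost regions had a median of 3.09 CPM in PB3-VIN-R and 9.03 CPM in PB3-Parental, and all regions together 10.3 CPM and 10.5 CPM in the same order of lines. The number of calls depended on the model: with a term for the replicate number (a replicate block), taken up at the end, it was 2589. The number of calls moved with single libraries: it was 50 without PB3-VIN-R replicate 1, 13 without PB3-VIN-R replicate 2, 963 without PB3-Parental replicate 1 and 51 without PB3-Parental replicate 2. The other lines enter through the shared estimate of the spread, and the number was 571 without PB3-PAC-R replicate 2, 108 without PB3-ERI-R replicate 1 and 109 without PB3-ERI-R replicate 2.

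**Figure D1:**
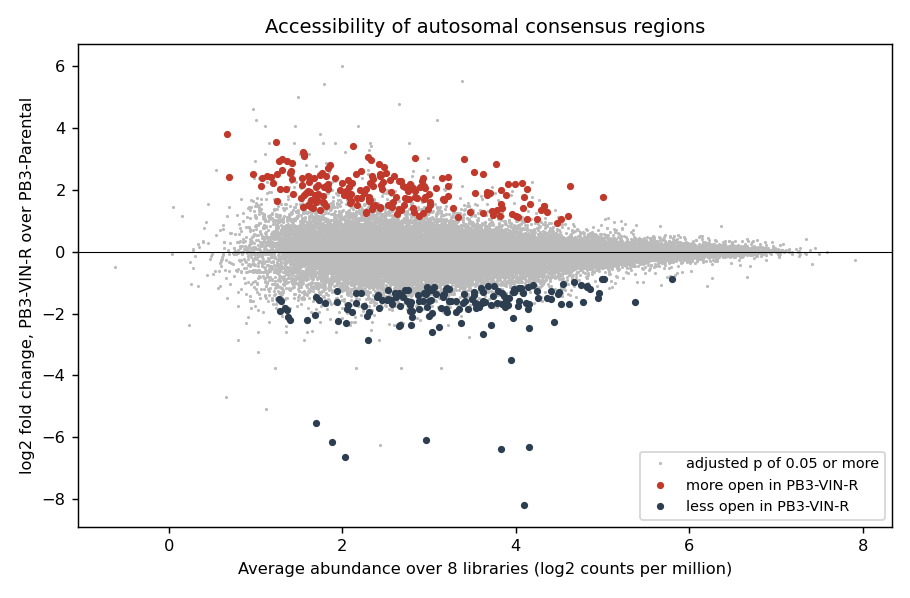
Each point is 1 autosomal consensus region, with its average abundance over the 8 libraries on the x axis (log2 CPM) and its log2 fold change, PB3-VIN-R over PB3-Parental, on the y axis; red and dark points passed an adjusted p under 0.05. The 198 gained and 163 lost regions lie at low to middle abundance around a narrow band of unchanged regions, and the dark points below -5 are regions of chromosome 4 with 0 or 1 count in PB3-VIN-R, whose fitted fold change is not a measured size.

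The gained regions lay away from the ends of genes. Of the 198, 5.56% lay within 1 kb of a gene end and 29.8% more than 50 kb from any protein-coding gene, whereas 21.3% and 15.9% of all tested regions did. The lost regions were placed more like the whole set near gene ends, with 22.1% within 1 kb of one, and 22.7% lay more than 50 kb away. A peak of the authors' list for PB3-VIN-R overlapped 90.4% of the gained regions, and a peak of the list for PB3-Parental 7.07% of them. Over all tested regions these shares were 78.9% and 64.8%. At the lost regions they were 16% for PB3-VIN-R and 57.1% for PB3-Parental. A peak of PB3-ERI-R with none in either line compared here overlapped 42.9% of the lost regions, against 17% of all. These shares are descriptions, with no test. The authors' autosomal peak lists, made per line, held 44407 peaks for PB3-VIN-R and 36874 for PB3-Parental. A parental peak overlapped 78.83% of the PB3-VIN-R peaks, and a PB3-VIN-R peak overlapped 95.98% of the parental peaks. The lists were called at unequal depth, and its part in their unequal length was not tested.

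Changed regions overlapped 46 promoter windows of the RefSeq table, and 6 of these are printed as examples, the 3 gained and 3 lost that the rule names. They cannot stand for the gained regions as a whole, of which 4.55% overlap such a window. Each line gives the 250 bases before a RefSeq start of the gene (GRCm38.p6), 5′ to 3′ on the gene's strand, with motif matches in capitals. At Elavl2 the overlapping region lies inside the gene, 23.4 kb from its nearest end, so the start used there is an internal one. The motifs searched on both strands were AP-1 (TGANTCA), an E-box bound by Zeb and Snai factors (CAGGTG), TEAD (GGAATG), ETS (CCGGAA), the GC box (GGGCGG), Runx (TGTGGT), the CCAAT box (CCAAT) and the TATA box (TATAAA). Clec2h (chr6:128662135-128662384, plus strand), Capsl (chr15:9435778-9436027, plus strand) and Gm30214 (chr14:53039467-53039716, minus strand) gained openness. Elavl2 (chr4:91376471-91376720, minus strand), Mtap (chr4:89137120-89137369, plus strand) and Stpg2 (chr3:139205643-139205892, plus strand) had a lower count in PB3-VIN-R.
Clec2h: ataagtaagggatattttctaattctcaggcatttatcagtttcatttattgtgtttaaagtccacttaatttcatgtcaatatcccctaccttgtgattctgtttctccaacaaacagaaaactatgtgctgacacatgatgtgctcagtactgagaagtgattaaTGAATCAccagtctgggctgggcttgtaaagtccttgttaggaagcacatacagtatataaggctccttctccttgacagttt
Capsl: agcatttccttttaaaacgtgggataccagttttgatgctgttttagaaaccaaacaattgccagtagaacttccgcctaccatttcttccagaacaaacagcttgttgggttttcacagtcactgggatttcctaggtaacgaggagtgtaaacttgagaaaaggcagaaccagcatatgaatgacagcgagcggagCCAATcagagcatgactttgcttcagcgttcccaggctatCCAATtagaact
Gm30214: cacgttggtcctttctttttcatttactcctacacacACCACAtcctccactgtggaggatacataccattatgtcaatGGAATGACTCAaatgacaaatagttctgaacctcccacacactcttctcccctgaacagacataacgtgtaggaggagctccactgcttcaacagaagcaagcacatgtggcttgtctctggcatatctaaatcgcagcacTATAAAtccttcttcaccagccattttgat
Elavl2: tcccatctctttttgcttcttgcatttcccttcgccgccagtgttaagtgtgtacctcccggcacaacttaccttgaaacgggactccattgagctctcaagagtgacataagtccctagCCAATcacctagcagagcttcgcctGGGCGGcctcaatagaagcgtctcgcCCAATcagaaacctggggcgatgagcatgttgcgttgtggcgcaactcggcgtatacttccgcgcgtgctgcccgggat
Mtap: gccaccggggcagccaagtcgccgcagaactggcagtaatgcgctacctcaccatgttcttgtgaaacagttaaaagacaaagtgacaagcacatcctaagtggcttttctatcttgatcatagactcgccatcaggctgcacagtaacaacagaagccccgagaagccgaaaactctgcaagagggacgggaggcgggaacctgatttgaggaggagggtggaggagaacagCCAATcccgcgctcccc
Stpg2: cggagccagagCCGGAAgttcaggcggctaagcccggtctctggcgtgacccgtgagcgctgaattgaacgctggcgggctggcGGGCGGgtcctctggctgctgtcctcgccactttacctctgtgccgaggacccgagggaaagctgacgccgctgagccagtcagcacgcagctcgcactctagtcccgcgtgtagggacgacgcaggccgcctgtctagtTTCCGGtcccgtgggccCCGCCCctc

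The 3 printed gained promoters differ in composition from the 3 printed lost ones, which do not stand for the lost promoters as a whole. Elavl2 and Mtap lie in the chromosome 4 stretch described further on, with 24 and 16 counts in PB3-Parental. The sequences of Clec2h, Capsl and Gm30214 are 37.2%, 43.6% and 44% G and C, with 0, 6 and 3 CG dinucleotides, and hold AP-1 matches in Clec2h and Gm30214, CCAAT boxes in Capsl, and TEAD, Runx and TATA box matches in Gm30214. Those of Elavl2, Mtap and Stpg2 are 55.2%, 54.4% and 68.4% G and C, with 17, 11 and 26 CG dinucleotides, and hold CCAAT boxes, GC boxes or ETS matches. In all, 41 changed regions overlapped the 46 windows. AP-1 was found in 4 of the 10 gained promoters and 0 of the 36 lost ones, against 5.15% of the 11964 promoters that any consensus region overlaps and 6.75% of all 32851. TEAD was found in 4 of the 10 gained and 1 of the 36 lost promoters, against 10.1% of those with a region. An AP-1 and a TEAD match overlap in Gm30214. Runx was found in 4 gained and 5 lost promoters, against 10.4%, and the TATA box in 2 and 6, against 5.53%. The E-box, ETS and CCAAT box were found in 2, 2 and 3 gained promoters. Among the lost they were found in 4, 8 and 13, against 15.1%, 23.9% and 35.9% of those with a region. The GC box was found in 2 of the 10 gained and 23 of the 36 lost promoters, against 61.8% of those with a region. A match describes the letters only, and 10 promoters are few.

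At Clec2h, a C-type lectin gene, the overlapping region had 15 and 10.9 CPM in PB3-VIN-R and 4.45 and 1.46 CPM in PB3-Parental, a log2 fold change of 2.11 (SE 0.40, adjusted p = 0.0293). At Capsl, a gene for a calcium-binding protein related to calcyphosine, the region had 1.95 and 2.7 CPM in PB3-VIN-R and 0.602 and 0.399 CPM in PB3-Parental (log2 fold change 2.18, SE 0.40, adjusted p = 0.0252). The Capsl region carried no peak in either of these lines. It reached an average of at least 2 log2 CPM over the 8 libraries through PB3-ERI-R, at 60.2 CPM on average. The region at Gm30214 had 8.85 and 9.28 CPM in PB3-VIN-R and 2.23 and 0.998 CPM in PB3-Parental (log2 fold change 2.47, SE 0.43, adjusted p = 0.0196). In all 3 the libraries of the lines did not overlap, which is also true of 34.6% of all regions.

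The 8 gained regions described here are the largest assigned to a gene with an average of at least 2 log2 CPM over the 8 libraries, and weaker sites with larger fold changes, such as the one assigned to Olfr149 (3.81), fall outside that limit. The region 10.5 kb from Slco1a1, a gene for an organic anion uptake transporter, had 9.99 and 7.82 CPM in PB3-VIN-R and 0.903 and 0.732 CPM in PB3-Parental. Its log2 fold change was 3.43 (95% interval 2.56 to 4.30, adjusted p = 0.00373), the largest among those the rule names. A region 14.9 kb from Slc13a1, which encodes a sodium-sulfate cotransporter, had 7.67 and 12.2 CPM in PB3-VIN-R and 1.93 and 0.399 CPM in PB3-Parental (log2 fold change 3.06, SE 0.47, adjusted p = 0.011).

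A region in Galc, the gene of the lysosomal enzyme galactosylceramidase, had the smallest SE of the 8 named gains. It had 16.1 and 16.6 CPM in PB3-VIN-R and 1.93 and 2.06 CPM in PB3-Parental, a log2 fold change of 3.03 (SE 0.30, adjusted p = 0.00218). The region in Spata16, a gene of sperm formation, had 11.1 and 13.9 CPM in PB3-VIN-R and 2.89 and 0.799 CPM in PB3-Parental. The other 4 gained regions named by the rule were in Col25a1, a transmembrane collagen gene, in Ntrk2, the gene of the neurotrophin receptor TrkB, and near Slc6a12 and Kcnmb2, with log2 fold changes of 2.56 to 2.84. The sites in Col25a1 and Ntrk2 stayed low in the resistant line, with 1.87 and 1.83 CPM and with 3.78 and 3.41 CPM in PB3-VIN-R, and 0.361 and 0.133 CPM and 0.662 and 0.532 CPM in PB3-Parental. Both passed the limit on average abundance because PB3-ERI-R, at 21.2 CPM and 43.3 CPM on average, lifts their mean over the study.

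The 8 lost regions described here passed the limit on average abundance largely through PB3-ERI-R, where they averaged 17.4 to 66.9 CPM, against 0.491 to 7.96 CPM in PB3-Parental. All 163 lost regions together had a parental median of 9.03 CPM, so the low parental level of these 8 is not that of the lost regions in general. In Reep3, a gene for a protein of the endoplasmic reticulum membrane, a region had 0.839 and 0.749 CPM in PB3-VIN-R and 4.57 and 4.26 CPM in PB3-Parental (log2 fold change -2.46, SE 0.26, adjusted p = 0.00218). In Stpg2, whose promoter is printed above, the region had 1.45 and 1.17 CPM in PB3-VIN-R and 6.08 and 9.85 CPM in PB3-Parental (log2 fold change -2.59, SE 0.32, adjusted p = 0.00459). A region 2.15 kb from Col1a1, which encodes a chain of type I collagen, had 0.877 and 0.957 CPM in PB3-VIN-R and 4.51 and 5.12 CPM in PB3-Parental (log2 fold change -2.38, SE 0.29, adjusted p = 0.00395). In Bcas3, Atf7ip2 and near Csmd1 the log2 fold changes were -2.67, -2.32 and -2.40. The loss near Csmd1, with 0.305 and 0.25 CPM in PB3-VIN-R and 0.843 and 2.2 CPM in PB3-Parental, was among the least certain (adjusted p = 0.0398). The last 2 sites the rule names, in Elavl2 and Mtap, had no count in PB3-VIN-R and lie in the stretch of chromosome 4 described further on. Of the 16 named regions, those at Slco1a1, Galc and Reep3 were called whichever of the 8 libraries was left out. Without PB3-VIN-R replicate 2 the other 13 were not called, and without PB3-VIN-R replicate 1 the calls at Slc13a1, Stpg2 and Atf7ip2 remained beside those 3. Without PB3-Parental replicate 2, 8 were not called (Slc13a1, Col25a1, Spata16, Slc6a12, Ntrk2, Bcas3, Csmd1 and Atf7ip2), and without PB3-Parental replicate 1 those at Elavl2 and Mtap were not. Without PB3-ERI-R replicate 1 or replicate 2 the calls at Slc13a1, Ntrk2, Elavl2, Mtap, Bcas3 and Csmd1 were lost.

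Summed over genes, 79 of the 14454 loci (0.547%) differed, 39 higher (0.27%) and 40 lower (0.277%) in PB3-VIN-R, and 63 of them had a log2 fold change of 1 or more in size. The number was 48 without PB3-VIN-R replicate 1, 12 without PB3-VIN-R replicate 2 and 5 without PB3-Parental replicate 2. It was 41 without PB3-ERI-R replicate 1 and 46 without PB3-ERI-R replicate 2. The 265 called regions that lie inside or within 50 kb of a gene fell on 223 genes. In 23 genes at least 2 regions were called, and within each of them all called regions moved the same way.

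The higher loci with the smallest adjusted p among those with at least 2 regions were Endou, Kcnmb2, Gabrb1 and Setbp1. Kcnmb2, which encodes an auxiliary subunit of the large-conductance calcium-activated potassium channel, had 79.6 and 77.7 CPM in PB3-VIN-R and 36 and 34 CPM in PB3-Parental (log2 fold change 1.17, SE 0.13, adjusted p = 0.00768). Its 6 regions all had positive fold changes, 0.68 to 2.56, of which 1 was called. Kcnma1, the gene of the pore-forming subunit of the same channel, was also higher, with 60.1 and 59 CPM in PB3-VIN-R and 31.6 and 16.1 CPM in PB3-Parental (log2 fold change 1.31, SE 0.22, adjusted p = 0.0288). There 4 of 14 regions were called. Kcnma1 was singled out after its values were seen.

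Gabrb1, a subunit gene of the GABA type A receptor, had 22.9 and 25.6 CPM in PB3-VIN-R and 6.95 and 6.13 CPM in PB3-Parental (log2 fold change 1.89, SE 0.22, adjusted p = 0.011). Both of its regions lie inside the gene and were called. Setbp1, named for binding the SET nuclear protein, had 25.4 and 25.1 CPM in PB3-VIN-R and 7.09 and 4.11 CPM in PB3-Parental (log2 fold change 2.17, SE 0.26, adjusted p = 0.0114). All 4 of its regions were called, with log2 fold changes of 1.76 to 2.52. None of the 4 carried a parental peak and each carried a PB3-VIN-R peak.

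Endou, which encodes an endoribonuclease that cuts at uridines, had the smallest adjusted p of the gains (0.00562). It had 91.8 and 92.7 CPM in PB3-VIN-R and 36.2 and 24.9 CPM in PB3-Parental, a log2 fold change of 1.59 (SE 0.16). Slc6a12, the gene of a betaine and GABA transporter, had 29.9 and 19.4 CPM in PB3-VIN-R and 5.37 and 5.89 CPM in PB3-Parental (log2 fold change 2.13, SE 0.31), and all 3 of its regions were called. Spata16, Sorcs3, a sorting receptor gene, and Pilrb2, an immunoglobulin-like receptor gene, had log2 fold changes of 2.33, 1.48 and 1.03. The gain of Pilrb2 rests on a region 10.2 kb from the gene, and the locus stood at 0.41, not called, when regions beyond 10 kb were left out (adjusted p = 0.769) and from gene ends alone (adjusted p = 0.974). Without PB3-Parental replicate 2 the gains of Kcnmb2, Gabrb1, Setbp1, Spata16, Slc6a12, Pilrb2, Sorcs3 and Slco1a1 were no longer called, while that of Endou was. Without PB3-VIN-R replicate 1 the gains of Slc6a12, Pilrb2 and Sorcs3 were not called, without PB3-VIN-R replicate 2 those of Spata16 and Sorcs3, and without PB3-Parental replicate 1 those of Slc6a12 and Pilrb2.

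**Figure D2:**
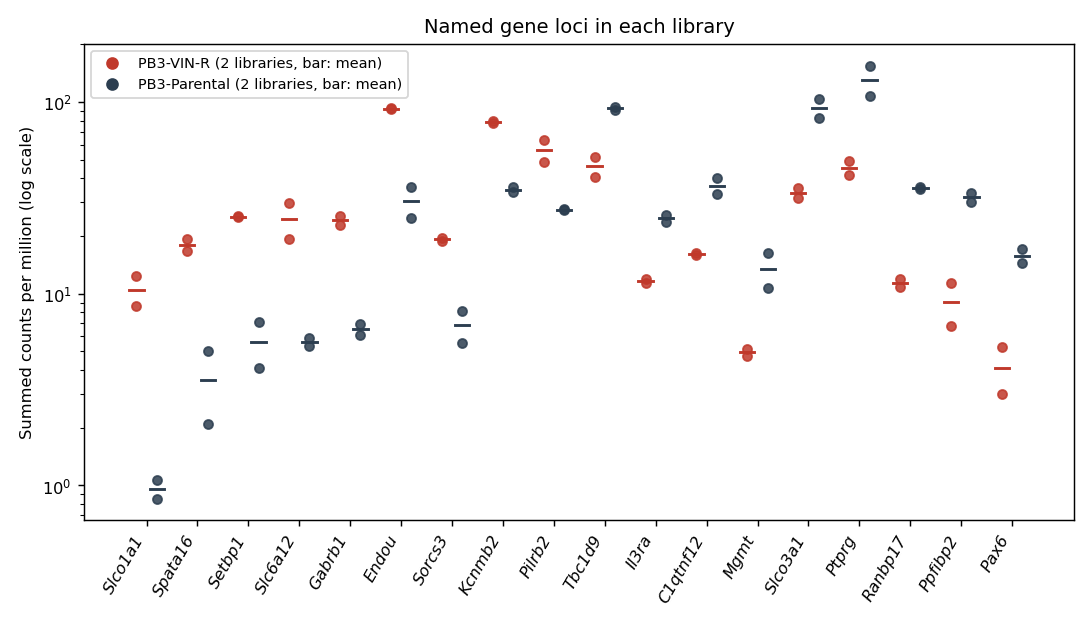
Each point is 1 library and each bar the mean of the 2 libraries of a line, for the 18 called loci that the rule names, as summed CPM on a log scale; PB3-VIN-R is in red on the left of each pair and PB3-Parental in dark on the right. In every pair both PB3-VIN-R points lie on 1 side of both PB3-Parental points, as in 29.3% of all loci, from Slco1a1 with a log2 fold change of 3.43 to Pax6 with -1.93.

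At Ptprg, Ppfibp2 and Slco3a1 several regions of the same gene were called lower. Ptprg, which encodes a receptor tyrosine phosphatase, had 49 and 41.6 CPM in PB3-VIN-R and 107 and 155 CPM in PB3-Parental (log2 fold change -1.53, SE 0.18, adjusted p = 0.0114). All 8 of its regions had negative fold changes, -1.93 to -1.18, and 6 were called. Of the 8, 2 lie within 1 kb of a gene end. The region there with the highest level had 11 and 9.2 CPM in PB3-VIN-R and 25.6 and 31.8 CPM in PB3-Parental. The region of Ptprg with the lowest level was not called. It held 4 counts in PB3-VIN-R and 6 in PB3-Parental, against 290 in PB3-ERI-R.

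Slco3a1, another organic anion transporter gene, had 35.7 and 31.6 CPM in PB3-VIN-R and 82.7 and 104 CPM in PB3-Parental (log2 fold change -1.47, SE 0.21, adjusted p = 0.017). All 5 of its regions were called lower, with fold changes of -1.66 to -1.29. Ppfibp2, the gene of liprin beta 2, a scaffold protein, had 11.4 and 6.81 CPM in PB3-VIN-R and 33.6 and 30 CPM in PB3-Parental (log2 fold change -1.81, SE 0.22, adjusted p = 0.0114). All 6 of its regions had negative fold changes and 3 were called. Among those not called, a pair held 8 counts each in PB3-VIN-R and 20 and 18 in PB3-Parental. In PB3-ERI-R that pair held 342 and 1152 counts.

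At Ranbp17, a gene of the importin family of nuclear transport receptors, 1 of 3 regions was called lower. The locus had 12 and 10.9 CPM in PB3-VIN-R and 36.1 and 35.3 CPM in PB3-Parental (log2 fold change -1.64, SE 0.15, adjusted p = 0.00562). Mgmt, the gene of the enzyme that removes alkyl groups from guanine in DNA, had 5.16 and 4.74 CPM in PB3-VIN-R and 10.7 and 16.3 CPM in PB3-Parental (log2 fold change -1.45, SE 0.23, adjusted p = 0.0228), with 1 of 2 regions called. Il3ra, the interleukin 3 receptor alpha gene, had 11.9 and 11.4 CPM in PB3-VIN-R and 23.7 and 25.9 CPM in PB3-Parental (log2 fold change -1.09, SE 0.16). Tbc1d9, with a Rab GTPase-activating domain, and C1qtnf12, the gene of the secreted protein adipolin, had log2 fold changes of -1.01 and -1.19. Of these losses, those of Ranbp17, Ptprg and Ppfibp2 were still called without PB3-Parental replicate 2, and those of Ranbp17 and Ppfibp2 without PB3-VIN-R replicate 2. Without PB3-VIN-R replicate 1 the losses of C1qtnf12, Il3ra and Mgmt were not called, and without PB3-ERI-R replicate 1 that of Mgmt.

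**Figure D3:**
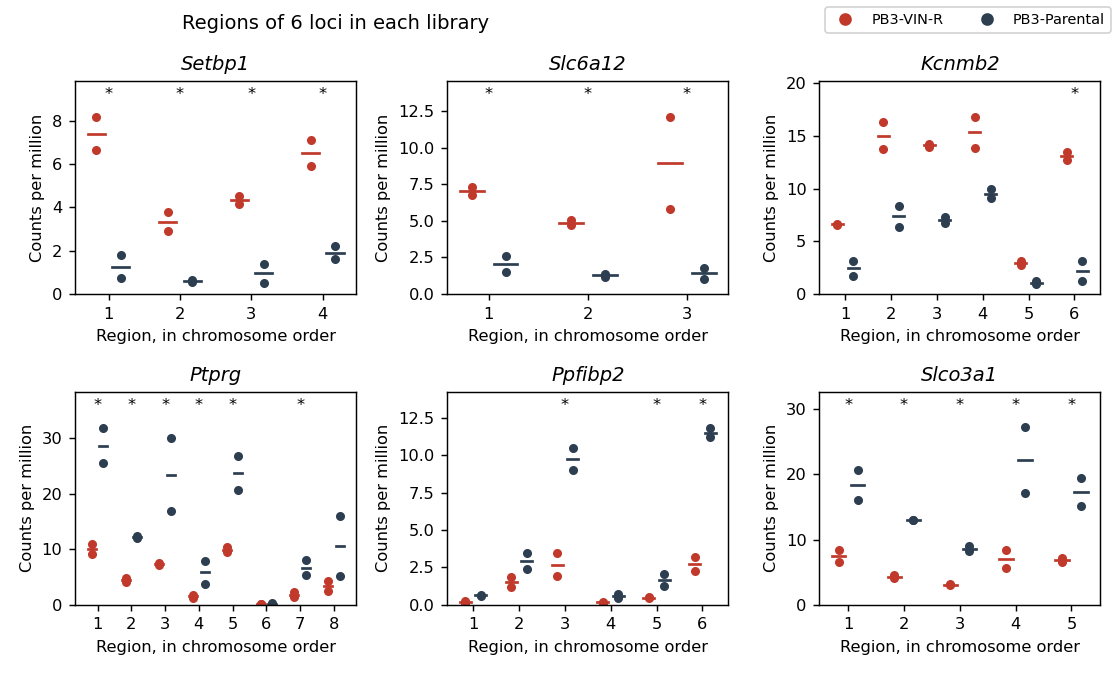
Each panel shows the regions of 1 locus in chromosome order, with the CPM of each library as points and the mean of each line as a bar; PB3-VIN-R is in red on the left and PB3-Parental in dark on the right, and an asterisk marks an adjusted p under 0.05 for that region. The 4 regions of Setbp1 and 3 of Slc6a12 were all higher in PB3-VIN-R, and the 8 of Ptprg, 6 of Ppfibp2 and 5 of Slco3a1 all lower. Some regions of Ptprg and Ppfibp2 held few counts in both lines.

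The genes tied to vinca alkaloid resistance showed no called change. Abcb1a, encoding P-glycoprotein, had 139 and 130 CPM in PB3-VIN-R and 108 and 118 CPM in PB3-Parental, a log2 fold change of 0.25 (95% interval -0.06 to 0.56, adjusted p = 0.908). Abcb1b had 61.5 and 60.6 CPM in PB3-VIN-R and 58 and 56.1 CPM in PB3-Parental (0.10, interval -0.12 to 0.31). The intervals leave room for a modest difference at Abcb1a and do not show that the lines are alike. Abcb4, the phosphatidylcholine transporter gene beside them, had a log2 fold change of -0.41 (interval -0.84 to 0.02).

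Of the 31 measured loci of drug efflux and detoxification genes, 1 was called higher, Slco1a1, and 0 lower, where 0.27% and 0.277% of all loci were called. The Slco1a1 locus was measured by 1 region, the one 10.5 kb from the gene already described above. The list median was 0.02 on the log2 scale, against -0.01 over all loci. Abcc4, a multidrug exporter gene, had the lowest value, with 208 and 199 CPM in PB3-VIN-R and 279 and 312 CPM in PB3-Parental (log2 fold change -0.54, SE 0.10, adjusted p = 0.0528). It lies in the last windows of chromosome 14 described further on. Abcc1 and Abcg2, a pair of further exporter genes, had log2 fold changes of -0.00 and -0.15.

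None of 15 tubulin loci, 22 microtubule-associated protein loci and 23 kinesin loci was called, and 0, 0 and 1 had an unadjusted p under 0.05. Over all loci the shares were 0.547% and 6.8%, so a count of 0 called loci in lists this short is near the background. Tubb3, the beta tubulin isotype gene often named in resistance to microtubule drugs, had 26.7 and 23.8 CPM in PB3-VIN-R and 24.6 and 25.7 CPM in PB3-Parental (log2 fold change 0.00, interval -0.36 to 0.37). Tubb2b had a log2 fold change of -0.05 (interval -0.27 to 0.17). The widest values were -0.52 at Tubb1 (adjusted p = 0.791), and 0.44 at the kinesin gene Kif21a (adjusted p = 0.186). The medians of the 3 lists were 0.03, -0.03 and -0.03.

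The epithelial and mesenchymal genes that mark the state of a carcinoma cell showed no called difference. Cdh1, the E-cadherin gene, had 113 and 88.5 CPM in PB3-VIN-R and 122 and 95.2 CPM in PB3-Parental (log2 fold change -0.11, interval -0.47 to 0.24). The region at its start had 2.17 and 2.16 CPM in PB3-VIN-R and 3.79 and 4.66 CPM in PB3-Parental, a log2 fold change of -0.96 (edgeR adjusted p = 0.0999) that was not called. Epcam, an epithelial adhesion gene, had a log2 fold change of -0.20 (interval -0.51 to 0.11). Zeb1, a repressor of epithelial genes, had 135 and 110 CPM in PB3-VIN-R and 126 and 128 CPM in PB3-Parental (-0.05, interval -0.31 to 0.22). Vim, the vimentin gene, was at -0.13 (interval -0.41 to 0.15). None of the 29 epithelial adhesion and keratin loci, 18 epithelial factor loci, 19 epithelial-mesenchymal transition factor loci and 34 mesenchymal and matrix loci was called, which at 0.547% of all loci is near the background. An unadjusted p under 0.05 was found for 4, 0, 0 and 4 of them, against 6.8% of all loci. The list medians were -0.12, -0.05, 0.00 and -0.04.

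Across 28 lists with 578 measured autosomal genes, 2 were called, Slco1a1 and Pax6, and 52 had an unadjusted p under 0.05, which 6.8% of all 14454 loci had. The list medians spanned -0.12 to 0.06. Pax6, a transcription factor gene of eye and brain that stood in the list of neural markers, was measured by 1 region. It had 5.25 and 2.99 CPM in PB3-VIN-R and 14.4 and 17.1 CPM in PB3-Parental (log2 fold change -1.93, SE 0.29, adjusted p = 0.0198), and was not called without PB3-VIN-R replicate 2 or without PB3-Parental replicate 2. No locus was called among the genes of the TGF-beta, Wnt, Notch, growth factor receptor, Hippo and axon guidance lists. The same held for cell cycle, apoptosis, AP-1 and SWI/SNF genes. With 0.547% of all loci called, a count of 0 in lists this short is near the background. An unadjusted edgeR p under 0.05 was found for 8 of 37 axon guidance, 6 of 34 Wnt and 4 of 21 Hippo loci. It was found for 2 of 30 TGF-beta, 0 of 19 Notch and 2 of 40 growth factor receptor loci. In the interferon response list the antiviral genes Rsad2 and Oas1a had log2 fold changes of 2.06 (adjusted p = 0.0888) and 2.49 (adjusted p = 0.259), neither called. Of the 16 loci measured in that list, 5 had an unadjusted edgeR p under 0.05. The list median was 0.06, and the lowest value was -0.43 at Ifit2. Rsad2 had 8 and 4.14 CPM in PB3-VIN-R and 2.01 and 0.853 CPM in PB3-Parental.

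Among the markers of mammary and other cell types Pax6 was the 1 called locus. Krt8, a luminal keratin gene, had 199 and 120 CPM in PB3-VIN-R and 189 and 120 CPM in PB3-Parental. Krt5, a basal keratin gene, was low in both lines, with 6.48 and 5.98 CPM in PB3-VIN-R and 3.58 and 2.71 CPM in PB3-Parental. The summed level of the luminal list was 858 and 686 CPM in PB3-VIN-R and 842 and 695 CPM in PB3-Parental, and that of the basal list 1127 and 946 CPM in PB3-VIN-R and 1036 and 927 CPM in PB3-Parental. An unadjusted edgeR p under 0.05 was found for 4 of 16 basal and 0 of 15 luminal loci, against 6.8% of all loci. The macrophage, endothelial, fibroblast and adipocyte lists had no called locus, which at 0.547% of all loci is near the background. Open chromatin at a locus is not expression: Esr1, the oestrogen receptor gene, had 88.2 and 76.2 CPM in PB3-VIN-R and 84.2 and 90.3 CPM in PB3-Parental in cells labelled Er-.

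**Figure D4:**
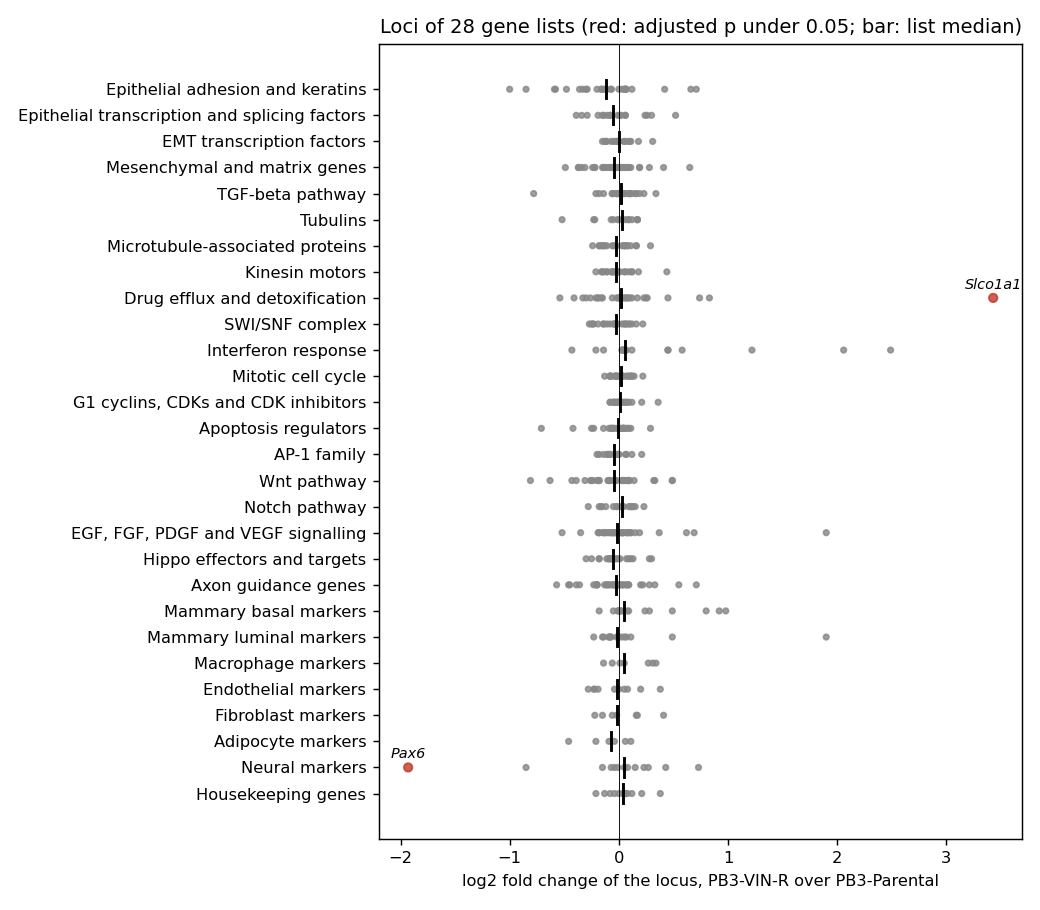
Each point is 1 gene locus, placed by its log2 fold change, PB3-VIN-R over PB3-Parental, in the row of its list; red points have an adjusted p under 0.05 and the black bars are list medians. Slco1a1 at 3.43 and Pax6 at -1.93 are the only red points among the 578 genes, and the list medians lie between -0.12 and 0.06.

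Of the 27 gained regions on chromosome 6, 18 lay in its distal part, which was shifted as a whole, and the other 9 at 20 to 25 Mb and 35 to 40 Mb, in windows with medians of -0.03 and -0.08. The 8 consecutive windows of 5 Mb between 110 and 150 Mb had medians of 0.25 to 0.35 on the log2 scale, and 83% of their 1128 regions had a positive fold change. In the window just before, at 105 to 110 Mb, the median was -0.04, and the highest median of the other 472 autosomal windows was 0.23. Of the 1128 regions, 0 were called lower. The loci called there were Slco1a1, Slco1a5, Slc6a12, A2ml1, Golt1b and Bcl2l14, all higher. With each region's own window median taken out, Slco1a1 (log2 fold change 3.10, adjusted p = 0.0218) and Slc6a12 (1.82, adjusted p = 0.0381) were still called. Slco1a5, a second transporter gene of the Slco1 cluster, then stood at 0.83 (adjusted p = 0.145), against 1.16 (adjusted p = 0.0236) without that step, and A2ml1, Golt1b and Bcl2l14 stood at 0.77, 0.41 and 0.34. The same windows had medians of 0.23 to 0.28 in PB3-PAC-R against the same parental libraries. The stretch was singled out after its values were seen, and whether the number of DNA copies differs there was not tested.

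The end of chromosome 14 shifted the other way. The windows at 115 to 120 Mb and 120 to 125 Mb had medians of -0.51 and -0.49, the lowest of 480 autosomal windows, and 95.1% and 98.1% of their regions had a negative fold change, although 0 regions were called in either. The same windows had medians of -0.29 and -0.18 in PB3-PAC-R and -0.49 and -0.63 in PB3-ERI-R against the same parental libraries. Summed over genes, Gpc5, a glypican gene, had 69.1 and 67.6 CPM in PB3-VIN-R and 101 and 112 CPM in PB3-Parental (log2 fold change -0.64, adjusted p = 0.0227). Rap2a, a small GTPase gene, and Mbnl2, a splicing regulator gene, had log2 fold changes of -0.53 and -0.58. With the window medians taken out the 3 loci stood at -0.13, -0.04 and -0.09 and were not called. In 464 of the 480 windows the median lay within 0.2 of 0.

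A stretch of chromosome 4 had almost no signal in PB3-VIN-R. Its 21 regions span chr4:89128152-91376744, and their nearest protein-coding genes are Mtap, Cdkn2a, Cdkn2b, Dmrta1 and Elavl2. Mtap is a gene of methionine salvage, Cdkn2a and Cdkn2b encode inhibitors of cell cycle kinases, and Elavl2 is a neuronal RNA-binding protein gene. The regions nearest Dmrta1 lie 160 to 173 kb from it, and those nearest Cdkn2b up to 168 kb away. The region in Elavl2 starts at chr4:91376389 and the one before it ends at chr4:89528288, with no consensus region between them. The PB3-VIN-R libraries held 1 count each there and the PB3-Parental libraries 192 and 82. The stretch was found by searching for consecutive regions with at most 2 counts each in one line and at least 100 counts together in the other, so its counts are what chose it and no test is given for them. The parental signal was itself low: PB3-ERI-R held 12741 counts in the same regions from shallower libraries, and PB3-PAC-R 213. The next consensus region on either side was not called. Without scaling for depth, the one at chr4:89105508-89105781 held 287 counts in PB3-VIN-R and 174 in PB3-Parental. The one at chr4:92311925-92312256 held 850 and 585 in the same order. It lies well beyond Elavl2, so it does not mark where the stretch ends.

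The stretch was uneven. At Cdkn2a and Cdkn2b themselves neither PB3-VIN-R nor PB3-Parental held a count, so the lines cannot be compared there, while PB3-ERI-R held 37.9 and 42.5 CPM at Cdkn2a. Most parental signal lay 117 to 168 kb from Cdkn2b, where the region at chr4:89478727-89479515 held 0 counts in PB3-VIN-R, and 45 and 25 in PB3-Parental. The region at chr4:89427797-89428483 held 1 count in PB3-VIN-R, and 48 and 22 in PB3-Parental. In the edgeR test over all regions both had an adjusted p of 0.00218. These values belong to single regions and come from the counts that chose the stretch, so they do not test it. At the Elavl2 promoter PB3-VIN-R held 0 counts and PB3-Parental 24, which makes PB3-VIN-R at least 12.7-fold lower at a floor of 3 counts over its libraries together. At the Mtap promoter PB3-VIN-R held 0 counts and PB3-Parental 16 (13 and 3), at least 8.47-fold lower by the same floor. PB3-PAC-R also held 0 counts at the Mtap promoter, and held 28 at the Elavl2 promoter. Summed over its 6 regions, which reach beyond the stretch, Mtap had 7.24 and 6.44 CPM in PB3-VIN-R and 9.31 and 6.36 CPM in PB3-Parental (log2 fold change -0.20, interval -0.64 to 0.24). Whether this DNA is missing from the cells or closed in them was not tested.

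**Figure D5:**
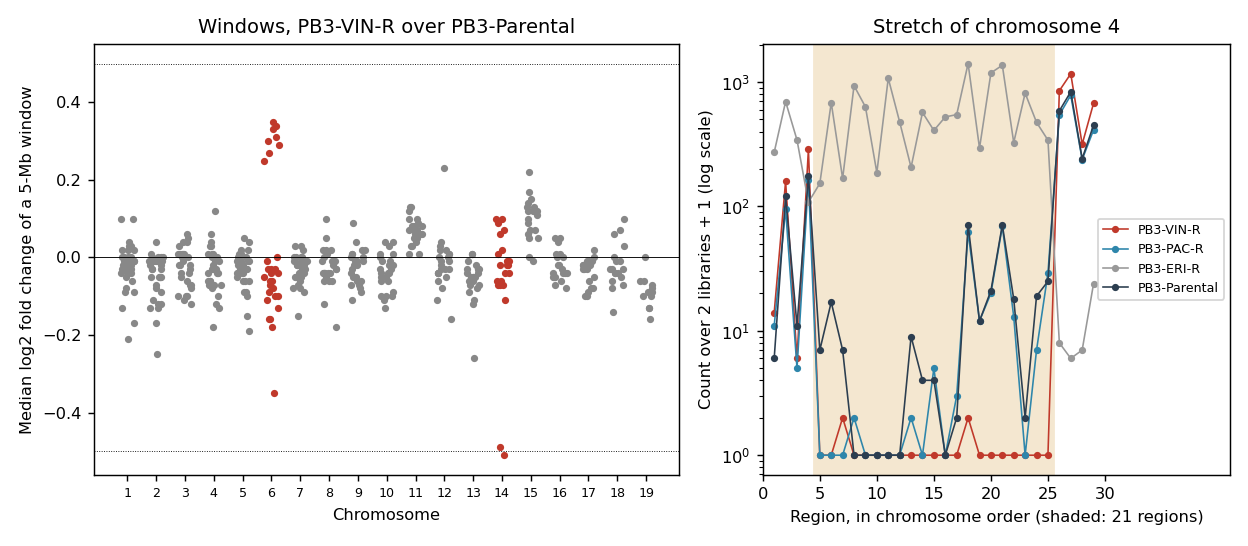
Left, each point is the median log2 fold change, PB3-VIN-R over PB3-Parental, of the regions of a 5-Mb window, by chromosome, with chromosomes 6 and 14 in red and dotted lines at 0.5 and -0.5. Right, the count over the 2 libraries of each line, plus 1, on a log scale, for 21 regions of chromosome 4 (shaded) and their neighbours. Distal chromosome 6 windows reach 0.35 and the last of chromosome 14 fall to -0.51, and in the shaded stretch PB3-VIN-R stays at 0 or 1 count.

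PB3-VIN-R was also tested directly against PB3-PAC-R. In that test 3 of the 56070 regions (0.00535%) and 3 of the 14454 loci (0.0208%) differed, with 2 of the loci higher (0.0138%) and 1 lower (0.00692%) in PB3-VIN-R. At an unadjusted p under 0.05 there were 2360 regions (4.21%) and 557 loci (3.85%). Gabrb1 had 22.9 and 25.6 CPM in PB3-VIN-R and 7.28 and 7.09 CPM in PB3-PAC-R, a log2 fold change of 1.75 (adjusted p = 0.0415). Kcnmb2 had 79.6 and 77.7 CPM in PB3-VIN-R and 39.4 and 34 CPM in PB3-PAC-R, a log2 fold change of 1.10 (adjusted p = 0.0415). Zfp882, a zinc finger gene measured by 1 region, had 5.16 and 3.95 CPM in PB3-VIN-R and 15 and 14.3 CPM in PB3-PAC-R, a log2 fold change of -1.69 (adjusted p = 0.0415). The 3 regions were the one in Zfp882 and the pair in the chromosome 4 stretch, where PB3-PAC-R held 61 and 68 counts. These calls were not stable when 1 library of either line was left out, although the 3 regions and 3 loci kept their direction in each such fit. Without PB3-VIN-R replicate 1 or without replicate 2 the number of regions was 0, with 2677 and 2094 at an unadjusted p under 0.05. Without PB3-VIN-R replicate 1 or 2, or PB3-PAC-R replicate 1 or 2, the number of loci was 0, with 727, 588, 609 and 275 at an unadjusted p under 0.05.

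Other loci had similar values in both resistant lines against the parental libraries that they share. Ranbp17 had a log2 fold change of -1.64 in PB3-VIN-R and -1.79 in PB3-PAC-R, Il3ra -1.09 and -1.15, Endou 1.59 and 1.37, and Mgmt -1.45 and -1.46, each over PB3-Parental. Others were further apart, such as Ptprg at -1.53 in PB3-VIN-R and -0.80 in PB3-PAC-R, and Slco3a1 at -1.47 and -0.63, though the direct test between the resistant lines did not call either (adjusted p = 0.45 for both). A p above the threshold does not show that the lines are alike at these genes.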

How the data were processed

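ATAC-seq libraries of 4 lines, 2 each, were read as paired ends of 76 bp. Per the submitters' processing notes the tools included cutadapt 1.9.1, Bowtie2 2.2.6, Picard, MACS2 2.1.1 and featureCounts, on mm10, without a stated order. The authors deposited raw read counts over 57417 consensus regions and a peak list per line. Each peak has a score, a fold enrichment and a −log10 p-value from the authors, of which only the positions were used.

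The members and lists were chosen with earlier results of these data known. Regions were given to the nearest RefSeq protein-coding gene (GRCm38.p6) within 50 kb. The counts were tested with edgeR 4.0.16 (quasi-likelihood, TMM scaling, low-count filter by line) in R 4.3.3 over all 8 libraries, with p-values adjusted over the whole table and calls at 0.05; the code was tested on simulated data. CPM values use the TMM library sizes; intervals of log2 fold changes come from the edgeR fit and include the spread between libraries, while floors cover counting error only. A region has no strand, and one shared by overlapping genes was given to 1 of them.

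Named regions are the 8 largest gains and 8 largest losses with an adjusted p under 0.05, an average of at least 2 log2 CPM over the 8 libraries, no overlap between the lines and a gene within 50 kb, 1 per gene. Named loci are the 8 higher and 8 lower with the smallest adjusted p, a log2 fold change of at least 1 and at least 2 regions, plus called genes of the lists and 12 fixed genes. Alternatives were other scalings (DESeq2 1.42.0 size factors and test among them), other sets of libraries, window offsets, a replicate block and other gene assignments. Overlaps used bedtools 2.31.1.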

Additional observations from a re-analysis of the deposited data

Results flagged for a closer look

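Among the loci, 3 were called different between PB3-VIN-R and PB3-PAC-R in a direct test. These calls were lost when any 1 library of either line was left out, as described above, though their direction held. In the fit without PB3-ERI-R 0 loci were called. A difference between the effects of the 2 lines is therefore not settled. The log2 fold changes, PB3-VIN-R over PB3-PAC-R, were 1.75 at Gabrb1, 1.10 at Kcnmb2 and -1.69 at Zfp882. The regions that differed in the same test were the one in Zfp882, with 195 counts in PB3-VIN-R and 386 in PB3-PAC-R, and a pair in the chromosome 4 stretch. In that pair PB3-VIN-R held 1 count and PB3-PAC-R 61 at one region, and PB3-VIN-R held 0 counts and PB3-PAC-R 68 at the other, which is at least 37-fold lower in PB3-VIN-R. With 2 libraries per line no test for a library that stands apart within its line was possible.

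The X chromosome lies outside the autosomal comparison and carried a signal of its own. Of its 23 windows of 5 Mb, 4 had raised medians of the log2 fold change, PB3-VIN-R over PB3-Parental: 0.61 at 35 to 40 Mb, 0.67 at 45 to 50 Mb, 0.67 at 50 to 55 Mb and 0.71 at 55 to 60 Mb. The highest autosomal median was 0.35. In PB3-PAC-R the same windows had medians of 0.22, 0.15, 0.12 and 0.19 against the same parental libraries.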

How the results depend on the processing

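The counts of calls depended strongly on the processing and on single libraries. Against PB3-Parental, where 361 regions were called, 239 were called with loess offsets, 587 by DESeq2, 180 with the 4 libraries alone, 99 without PB3-ERI-R and 50 at an adjusted p under 0.01. Leaving out one library gave 13 to 963 regions; the versions without a PB3-PAC-R or PB3-ERI-R library were added after seeing the data. Where 79 loci were called, 171 were called by DESeq2, 39 without PB3-ERI-R, 18 from gene ends alone and 3 at an adjusted p under 0.01, and leaving out one library gave 5 to 79. Against PB3-PAC-R, where 3 regions and 3 loci were called, 0 regions (2116 at an unadjusted p under 0.05) and 0 loci (546) were called by edgeR without PB3-ERI-R, and leaving out one library gave 0 to 4 regions and 0 loci. No DESeq2 test was run against PB3-PAC-R. Of the 361 regions, 270 were also called without TMM factors, 279 with DESeq2 size factors, 237 with loess offsets and 293 with window offsets.

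The labels give replicates of different lines the same numbers and do not say what a number marks. Same-numbered libraries deviated together in all 6 pairs of lines, at r = 0.103 to 0.503, with 0.451 between PB3-VIN-R and PB3-Parental and 0.503 between PB3-VIN-R and PB3-PAC-R. Whether a number marks a shared batch was not tested. With the replicate block, 2589 regions (1284 higher, 1305 lower) and 398 loci were called against PB3-Parental, which include all 361 regions and 79 loci, and 210 regions and 38 loci against PB3-PAC-R. Each cause was not tested, except that fewer libraries leave fewer degrees of freedom.

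No called named region or locus changed direction, but calls were lost. Without TMM factors or with DESeq2 size factors the regions in Mtap and near Csmd1 were not called, with loess offsets also those in Ntrk2 and Elavl2, with window offsets that in Mtap, with the 4 libraries alone that near Csmd1, and without PB3-ERI-R 8 of 15 (Slc13a1, Col25a1, Spata16, Ntrk2, Elavl2, Bcas3, Csmd1 and Atf7ip2). The locus of Mgmt was not called with the 4 libraries alone or without PB3-ERI-R. Within 10 kb Pilrb2 was not called, and from gene ends alone Ppfibp2, Slco3a1, C1qtnf12 and Pilrb2 were not called. Slco1a1, whose 1 region lies 10.5 kb from the gene, had no value in either setting. Among the uncalled genes, leaving out one library changed the sign of Cdh1 (-0.30 to 0.08, 0.04 without PB3-VIN-R replicate 2), Epcam (-0.40 to 0.03), Zeb1 (-0.20 to 0.09), Tubb3 (-0.08 to 0.08, -0.03 without PB3-Parental replicate 1), Tubb2b (-0.13 to 0.02) and Mtap (-0.45 to 0.10), and window offsets that of Tubb2b (0.02). Depth limits the regions near 0.2 CPM or below.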
